A study of Mus musculus with 12 samples.

Results

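The nuclear-encoded genes of the mitochondrial respiratory chain were followed in GC-2 cells, a mouse cell line, under 24 h of hypoxia and under the neddylation inhibitor MLN4924. They were taken from the deposited table by symbol: names that begin with Nduf, Uqcr or Atp5, the families Cox4 to Cox8, and Sdha to Sdhd. Of 24770 symbols, 101 matched, of which 9 were named as pseudogenes and left out. Of the remaining 92, 89 reached at least 1 FPKM (fragments scaled to transcript length and to the library's mapped fragments) in at least 3 of the 12 libraries and are the members described here. The other 3, Cox4i2, Ndufa4l2 and Cox7b2, fell below that minimum. The 89 members comprised 38 subunits of complex I (7 core, 31 accessory), 8 assembly factors of complex I, 4 subunits of complex II, 8 of complex III, 14 genes of complex IV and 17 of complex V. The same minimum left 12311 genes of all kinds to be tested.

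Complex I takes electrons from NADH and complex II takes them from succinate, and both pass them to ubiquinone. Complex III hands them on to cytochrome c, complex IV gives them to oxygen, and complex V, the ATP synthase, uses the proton gradient that complexes I, III and IV build. Complexes I, III, IV and V each also hold subunits encoded in mitochondrial DNA, while complex II is encoded in the nucleus alone. In low oxygen the hypoxia-inducible factor (HIF) is known to change this machinery, with Cox4i2 in place of Cox4i1 and a raised Ndufa4l2 as textbook examples.

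The 4 conditions compared, with 3 libraries each, were all of wild-type GC-2 cells cultured for 24 h. These were DMSO (the solvent control) in normoxia, DMSO in hypoxia with 1% O2, MLN4924 at 1 µM in normoxia, and MLN4924 at 1 µM in hypoxia. MLN4924 blocks the enzyme that activates NEDD8, a ubiquitin-like protein that cullin-RING ubiquitin ligases need, and one of these ligases is known to mark HIF for degradation. The labels name the cells as type B spermatogonia of 1 line, and all groups share that line. Of 7 germ line markers in the table, 5 (Ddx4, Kit, Sohlh1, Sohlh2 and Nanos3) stayed at or below 0.26 FPKM in every library, while Uchl1 lay at 10.8 to 22.4 FPKM and Gfra1 at 1.14 to 6.23 FPKM. Of the fibroblast markers, Col1a1 lay at 365 to 739 FPKM and Pdgfra at 0.62 to 11.9 FPKM. Of 4 Sertoli cell markers, Sox9 lay at 2.09 to 8.82 FPKM, Rhox5 at 1.25 to 3.87 FPKM and Amh at or below 0.43 FPKM. The fourth, Wt1, moved with hypoxia, from 0.53, 0.46 and 0.4 FPKM to 7.6, 5 and 7.08 FPKM in DMSO and from 0, 0 and 0.5 FPKM to 2.69, 1.89 and 1.3 FPKM under MLN4924. Other markers differed between groups too, given here for DMSO normoxia, DMSO hypoxia, MLN4924 normoxia and MLN4924 hypoxia in turn. Sox9 lay at 5.89 to 6.46, 6.56 to 8.82, 2.09 to 2.4 and 3.09 to 4.53 FPKM. Gfra1 lay at 4.82 to 6.23, 2.6 to 3.46, 1.85 to 3.45 and 1.14 to 2.33 FPKM. Col1a1 lay at 612 to 625, 575 to 739, 365 to 367 and 451 to 474 FPKM. The part of these markers in the members' values was not tested. Of the 12 germ line markers listed, Dazl, Zbtb16, Stra8, Dmrt1 and Sall4 are not among the deposited symbols. Sycp1, Sycp3 and Acrv1, markers of spermatocytes and spermatids, stayed at or below 0.35 FPKM, and the Leydig cell markers Cyp17a1 and Hsd3b1 at or below 0.14 FPKM. The label of type B spermatogonia is used only as given, since most germ line markers listed, other than Uchl1 and Gfra1, are absent or nearly so.

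Summed FPKM ran from 530452 to 633597 per library, and the members made up 3.04% to 3.74% of it. FPKM hold no read counts, so the depth behind each value is unknown. DMSO hypoxia replicate 1 stood apart: its total and its member share were the highest of the 12 libraries, and 88 of 89 members lay above the mean of the other replicates of its group, by a median of 0.50 on the log2 scale. Across 12177 genes this deviation had a Spearman rho of -0.40 with the length of the transcript, and the members are short transcripts, with a median of 667 nt against 1999 nt for the tested genes. The counts over the members and most values are therefore given also without this library. Without it the median standard error of the members' log2 fold changes fell from 0.12 to 0.056 for hypoxia against normoxia in DMSO. All 4 groups share 1 estimate of the spread, so it also fell, from 0.12 to 0.051, for MLN4924 against DMSO in normoxia. RNA from mitochondrial DNA took 10.4% to 12.5% of FPKM in the normoxic libraries and 5.87% to 8.25% in the hypoxic ones. Its part in the members' values was not tested. A scaling to the nuclear total is given below, but it also evens out the library totals, of which DMSO hypoxia replicate 1 had the highest.

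Hypoxia moved a few members strongly. In DMSO, 7 of 89 members rose and 10 fell (limma on log2(FPKM + 1), adjusted p under 0.05), while among all 12311 tested genes 13.8% rose and 19.4% fell. Under MLN4924, 4 members rose and 12 fell, against 11.7% and 16.5% of all tested genes. Here "rose" and "fell" are used for members that passed this test. The 4 that rose under MLN4924 (Ndufv3, Cox7a2l, Uqcrq and Cox6a2) were also among the 7 that rose in DMSO, and 7 of the genes that fell were shared: Ndufa4, Atp5g1, Atp5a1, Atp5b, Atp5c1, Ndufc1 and Ndufaf4. The comparisons use separate libraries but share 1 estimate of the spread. How many of all tested genes were shared in this way was not computed.

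Of the 53 members at 100 FPKM or more in DMSO normoxia, Ndufv3 changed most. It encodes a small accessory subunit at the NADH-binding tip of complex I. In DMSO normoxia it stood at 149, 159 and 168 FPKM, and in DMSO hypoxia at 524, 342 and 379.6 FPKM in replicates 1 to 3. With MLN4924 it stood at 122, 125 and 127 FPKM in normoxia and at 242, 275 and 277 FPKM in hypoxia. No hypoxic library overlapped a normoxic one, and the MLN4924 libraries lay below the DMSO libraries at both oxygen levels. The log2 fold change with hypoxia was 1.36 ± 0.13 (SE; limma adjusted p = 3.65e-05) in DMSO and 1.07 ± 0.13 (limma adjusted p = 0.000226) under MLN4924. Without DMSO hypoxia replicate 1 the DMSO value was 1.18 ± 0.071 (limma adjusted p = 1.73e-06). The neighbouring subunits of the same tip, Ndufv1 and Ndufv2, which carry the flavin and an iron-sulfur cluster, had DMSO values of 0.19 and 0.15 and did not pass the test (limma adjusted p = 0.138 and 0.638). The hypoxic libraries of Ndufv1 still lay above its normoxic ones in both drug conditions. Ndufv1 also rose under MLN4924 in the fit without DMSO hypoxia replicate 1, whereas Ndufv2 passed in neither drug condition in either fit.

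Cox7a2l encodes SCAF1, a relative of the Cox7a subunits that ties complexes III and IV into supercomplexes. It read 115, 109.9 and 108 FPKM in DMSO normoxia and 289, 186 and 211 FPKM in DMSO hypoxia. Under MLN4924 it read 121, 120.2 and 125 FPKM in normoxia and 217, 232 and 213 FPKM in hypoxia. Every hypoxic library lay above every normoxic one. The MLN4924 hypoxia values fell inside the DMSO hypoxia range only through DMSO hypoxia replicate 1, and lay above replicates 2 and 3. MLN4924 normoxia values lay above DMSO normoxia values. MLN4924 against DMSO did not pass at either oxygen level, with or without DMSO hypoxia replicate 1. The log2 fold change with hypoxia was 1.01 ± 0.13 in DMSO (limma adjusted p = 0.000214) and 0.83 ± 0.056 there without DMSO hypoxia replicate 1. Under MLN4924 the value was 0.85 ± 0.13 (limma adjusted p = 0.000772). As a share of the summed FPKM of Cox7a1, Cox7a2 and Cox7a2l it went from 33.2% ± 1.15 (SD, n = 3) to 46.8% ± 1.90 in DMSO and from 37.6% ± 1.80 to 54.3% ± 1.78 under MLN4924. Cox7a2, the isoform of most tissues, stood at 222, 212 and 227 FPKM in DMSO normoxia and 319.7, 215 and 209 FPKM in DMSO hypoxia, a log2 change of 0.14 that did not pass (limma adjusted p = 0.460).

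The promoters of Ndufv3 and Cox7a2l are shown because both genes rose in both drug conditions, and that of Cox7a1 because it is the muscle isoform that rose in DMSO, and that of Ndufa4 because it fell furthest with hypoxia in DMSO among the members that passed with all libraries. Each window runs from 250 bases before to 50 bases after the RefSeq start site on GRCm38.p6, 5′ to 3′ on the gene's strand, with the core letters of the HIF motif, ACGTG or GCGTG on either strand, in capitals. The Ndufv3 window is chr17:31519865-31520164 on the plus strand, Cox7a2l chr17:83514284-83514583 on the minus strand, Cox7a1 chr7:30183921-30184220 on the plus strand and Ndufa4 chr6:11907401-11907700 on the minus strand.
Ndufv3: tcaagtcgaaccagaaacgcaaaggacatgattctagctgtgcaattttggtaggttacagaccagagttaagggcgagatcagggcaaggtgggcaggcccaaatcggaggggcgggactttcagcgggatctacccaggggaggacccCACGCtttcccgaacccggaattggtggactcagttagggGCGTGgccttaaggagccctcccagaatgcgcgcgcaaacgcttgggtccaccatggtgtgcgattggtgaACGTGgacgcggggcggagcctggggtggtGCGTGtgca
Cox7a2l: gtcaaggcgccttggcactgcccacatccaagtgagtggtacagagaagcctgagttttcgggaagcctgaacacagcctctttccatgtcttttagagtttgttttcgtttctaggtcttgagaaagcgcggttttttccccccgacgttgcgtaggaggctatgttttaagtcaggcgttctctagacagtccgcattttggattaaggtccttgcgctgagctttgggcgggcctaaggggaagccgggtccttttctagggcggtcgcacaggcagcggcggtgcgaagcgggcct
Cox7a1: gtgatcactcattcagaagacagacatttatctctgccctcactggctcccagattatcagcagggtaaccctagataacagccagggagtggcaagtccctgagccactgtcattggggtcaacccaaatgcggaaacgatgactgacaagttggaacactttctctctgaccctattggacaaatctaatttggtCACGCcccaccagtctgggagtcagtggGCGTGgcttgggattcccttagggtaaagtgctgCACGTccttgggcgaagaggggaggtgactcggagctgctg
Ndufa4: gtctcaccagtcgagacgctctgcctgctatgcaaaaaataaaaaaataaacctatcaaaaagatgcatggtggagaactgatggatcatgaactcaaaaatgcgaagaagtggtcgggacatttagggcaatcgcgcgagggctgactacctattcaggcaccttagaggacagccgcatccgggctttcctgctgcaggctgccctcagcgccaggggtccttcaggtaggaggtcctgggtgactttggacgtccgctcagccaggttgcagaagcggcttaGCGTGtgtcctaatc
The Ndufv3 window holds 4 matches, at -100, -60, 12 and 42 from the start site, and the Cox7a1 window 3, at -53, -25 and 10. The Ndufa4 window holds 1, at 36, and the Cox7a2l window 0. A match is a description of these letters only, and 43.77% of the 32851 promoter windows of the same length hold at least 1. Windows were found for 74 of the 89 members, and Cox6a2 and Uqcrq were not among them.

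Uqcrq, a small subunit of complex III that sits beside cytochrome b, was the one member of complex III to rise. It read 187, 171 and 209 FPKM in DMSO normoxia, 366, 248 and 255 FPKM in DMSO hypoxia, 203, 185 and 227 FPKM in MLN4924 normoxia and 311, 283 and 299 FPKM in MLN4924 hypoxia. The normoxic and hypoxic libraries did not overlap in either drug condition. The log2 fold change was 0.59 ± 0.14 in DMSO (limma adjusted p = 0.00928; 0.41 ± 0.094 without DMSO hypoxia replicate 1) and 0.54 ± 0.14 under MLN4924 (limma adjusted p = 0.0170). The MLN4924 call was lost without MLN4924 hypoxia replicate 1 (log2 fold change 0.51, limma adjusted p = 0.0555) and without MLN4924 normoxia replicate 1 or 2, at log2 fold changes of 0.54 and 0.47.

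The muscle isoforms of complex IV rose from low levels. Cox6a2, the heart and muscle form of subunit VIa, read 1.71, 1.64 and 1.65 FPKM in DMSO normoxia and 9.28, 8.38 and 7.51 FPKM in DMSO hypoxia. Under MLN4924 it read 1.1, 2.88 and 1.08 FPKM in normoxia and 10.5, 8.55 and 6.53 FPKM in hypoxia. The hypoxic libraries of both drug conditions shared 1 range, well above all normoxic ones. The log2 fold change of FPKM + 1 was 1.81 ± 0.23 in DMSO (limma adjusted p = 0.000242) and 1.87 ± 0.23 under MLN4924 (limma adjusted p = 0.000249), and 1.74 ± 0.26 in DMSO without replicate 1 of its hypoxia group. The added 1 FPKM makes these folds smaller than the ratio of FPKM. Cox6a1, the form of most other tissues, stood at 808 ± 21.6 FPKM in DMSO normoxia, so Cox6a2 was 0.206% ± 0.00245 (SD, n = 3) of the pair there and 0.891% ± 0.153 in DMSO hypoxia, and 0.235% ± 0.136 and 1.01% ± 0.212 with MLN4924.

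Cox7a1, the heart and muscle form of subunit VIIa, spread widely between replicates. It read 1.17, 2.91 and 4.0 FPKM in DMSO normoxia and 24.3, 5.70 and 10.3 FPKM in DMSO hypoxia, with the replicate that stands apart at the top. Under MLN4924 it read 1.48, 3.44 and 0.94 FPKM in normoxia and 1.51, 3.84 and 3.52 FPKM in hypoxia, so these groups overlapped. The DMSO rise had a log2 fold change of 1.83 ± 0.51 (limma adjusted p = 0.0193) and of 1.32 ± 0.46 without DMSO hypoxia replicate 1 (limma adjusted p = 0.0465), and it was lost without DMSO normoxia replicate 1 (1.49, limma adjusted p = 0.0741). The value under MLN4924, 0.45 ± 0.51, did not pass (limma adjusted p = 0.560), and the difference between the drug conditions did not pass either (-1.38 ± 0.72, limma adjusted p = 0.422). Cox7a1 made up 1.20% ± 0.617 (SD, n = 3) of the sum of Cox7a1 and Cox7a2 in DMSO normoxia, 4.78% ± 2.24 in DMSO hypoxia, 0.978% ± 0.698 in MLN4924 normoxia and 1.62% ± 0.742 in MLN4924 hypoxia.

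**Figure D1:**
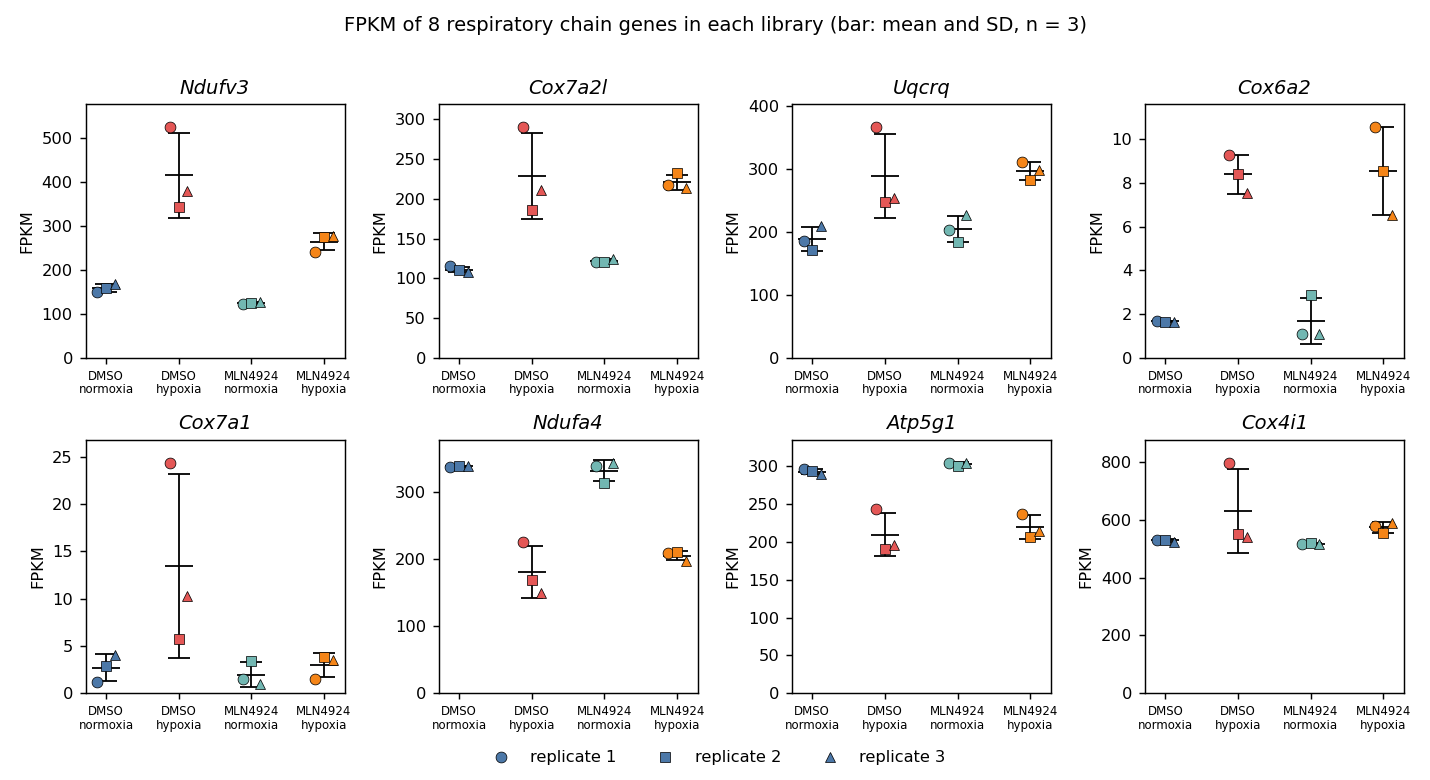
FPKM (y axis, from 0) of 8 members in each library, grouped on the x axis by drug and oxygen; points are libraries with the marker giving the replicate number, and bars are the mean and SD of 3 libraries. Ndufv3, Cox7a2l, Uqcrq and Cox6a2 lie higher in both hypoxia groups and Ndufa4 and Atp5g1 lower, while Cox4i1 is highest in DMSO hypoxia replicate 1 and, under MLN4924, higher in hypoxia than in normoxia.

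The textbook isoform exchanges were followed by level. Cox4i1, the general form of subunit IV, read 532, 531 and 523 FPKM in DMSO normoxia and 796, 550.3 and 541 FPKM in DMSO hypoxia, with the first of these alone far above the rest. With MLN4924 it read 515, 520.4 and 515 FPKM in normoxia and 579, 553 and 588 FPKM in hypoxia. Its log2 fold change in DMSO was 0.23 ± 0.12 (limma adjusted p = 0.171) with all libraries and 0.046 ± 0.029 (limma adjusted p = 0.235) without DMSO hypoxia replicate 1. Under MLN4924 it was 0.15 ± 0.12 (limma adjusted p = 0.405), which passed without that library (limma adjusted p = 0.00124), and the hypoxic libraries lay above the normoxic ones in both drug conditions. Cox4i2, the form that HIF is known to induce in lung and liver cells, was listed at 0 in 11 of 12 libraries and at 0.12 FPKM in DMSO hypoxia replicate 2. No exchange of Cox4i1 for Cox4i2 was detectable at the level of RNA. Ndufa4l2, a HIF target in other cells that is known to lower complex I activity, read 0.17, 0.42 and 0.25 FPKM in DMSO normoxia and 0.72, 0.83 and 0.75 FPKM in DMSO hypoxia, and 0.11, 0.33 and 0.08 FPKM and 0.08, 0.49 and 0 FPKM in the corresponding MLN4924 groups. The 3 DMSO hypoxia libraries were the highest of the 12, but all values stayed below the 1 FPKM minimum and were not tested. Cox7b2, a testis relative of Cox7b, was listed at 0 or at most 0.22 FPKM.

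Ndufa4 fell in hypoxia. It was first counted as a complex I subunit and is now placed in complex IV. It read 337, 339 and 339 FPKM in DMSO normoxia and 225, 169 and 149.8 FPKM in DMSO hypoxia, and under MLN4924 339, 313 and 343 FPKM in normoxia and 209, 209.9 and 197 FPKM in hypoxia. Every hypoxic library lay below every normoxic one, and DMSO hypoxia replicates 2 and 3 were the lowest of all. In DMSO its log2 fold change was -0.92 ± 0.12 (limma adjusted p = 0.000240) and -0.69 ± 0.12 under MLN4924 (limma adjusted p = 0.00170). Without DMSO hypoxia replicate 1 the DMSO value was -1.08 ± 0.056. Ndufa4l2 was 0.0826% ± 0.0375 (SD, n = 3) of the sum of the pair in DMSO normoxia and 0.436% ± 0.101 in DMSO hypoxia, so Ndufa4l2 stayed a minute share of the pair.

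In the ATP synthase 0 of 17 members rose with hypoxia in either drug condition. In DMSO 4 of 17 (23.5%) fell, near the 19.4% of all tested genes, and under MLN4924 6 of 17 (35.3%) fell, against 16.5%. Without DMSO hypoxia replicate 1 the counts were 11 of 17 (64.7%) against 23.9% and 10 of 17 (58.8%) against 24.7%. The median log2 change of complex V in that fit was -0.22 in DMSO and -0.28 under MLN4924, beside -0.068 and -0.048 for all tested genes. With all libraries the DMSO median was -0.067, beside -0.077 for all tested genes, so the position of complex V in DMSO rests on leaving that library out. Under the scalings tried the DMSO median without that library ran from -0.25 to -0.16 and the MLN4924 median from -0.31 to -0.23.

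Among the catalytic subunits, Atp5a1 (alpha of the F1 head) read 282, 282 and 281 FPKM in DMSO normoxia, 253, 229 and 232 FPKM in DMSO hypoxia, 274, 275 and 282 FPKM in MLN4924 normoxia and 233, 221 and 226 FPKM in MLN4924 hypoxia. Its groups did not overlap by oxygen, and the log2 fold change was -0.24 ± 0.048 (limma adjusted p = 0.00327) and -0.29 ± 0.048 (limma adjusted p = 0.00149) in DMSO and MLN4924. With that library left out the DMSO values were -0.29 for Atp5a1, -0.26 for Atp5b, -0.47 for Atp5c1 and -0.60 for Atp5g1, and all 4 passed (limma adjusted p = 5.08e-05, 6.05e-05, 0.000323 and 1.47e-05). Atp5b, the catalytic beta subunit, read 628, 632 and 634.06 FPKM in DMSO normoxia, 599, 533 and 525 FPKM in DMSO hypoxia, 658, 658 and 649.5 FPKM in MLN4924 normoxia and 591, 560.0 and 578 FPKM in MLN4924 hypoxia. The changes of -0.20 ± 0.055 and -0.18 ± 0.055 were small and passed by little (limma adjusted p = 0.0210 and 0.0305), and 7 and 8 of the 23 alternatives lost them. Atp5c1, the gamma shaft that turns inside the head, changed by -0.32 ± 0.11 (limma adjusted p = 0.0488, lost in 16 of 23 alternatives) and by -0.48 ± 0.11 (limma adjusted p = 0.00900, lost in 0 of 23). The 2 small F1 subunits, Atp5d (delta) and Atp5e (epsilon), did not pass in either condition, with DMSO values of 0.17 and 0.048 and MLN4924 values of 0.12 and -0.047.

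The c-ring of the membrane part is made from 3 genes that give the same mature protein, Atp5g1, Atp5g2 and Atp5g3. Atp5g1 read 295, 293 and 289 FPKM in DMSO normoxia, 242, 189.7 and 196 FPKM in DMSO hypoxia, 304, 299.95 and 303 FPKM in MLN4924 normoxia and 236, 206 and 214 FPKM in MLN4924 hypoxia, with no overlap by oxygen. Its log2 fold changes were -0.49 ± 0.086 (limma adjusted p = 0.00173) in DMSO and -0.47 ± 0.086 under MLN4924 (limma adjusted p = 0.00262). Atp5g3 read 265, 267 and 275 FPKM in DMSO normoxia and 272, 197 and 193 FPKM in DMSO hypoxia, where the replicate that stands apart lay at the normoxic level, so that its change of -0.30 ± 0.11 did not pass (limma adjusted p = 0.0611; -0.46 ± 0.051 and 9.49e-05 without that library). Under MLN4924 Atp5g3 read 280.1, 257 and 255 FPKM in normoxia and 192, 180.3 and 173 FPKM in hypoxia and changed by -0.53 ± 0.11 (limma adjusted p = 0.00550). Atp5g2 was the minor form, at 20.1, 11.3 and 19.8 FPKM in DMSO normoxia and 16.6, 4.08 and 7.52 FPKM in DMSO hypoxia, and its wide spread left the change of -0.94 ± 0.37 short of the threshold with all libraries (limma adjusted p = 0.0760). How reads shared by near-identical copies were divided, here or in members with processed pseudogenes, is not given in the sources used here, nor is the use of strand. Summed over the 3 genes, the level was 578 ± 6.30 (SD, n = 3) FPKM in DMSO normoxia, 439 ± 79.2 in DMSO hypoxia, 584 ± 17.4 in MLN4924 normoxia and 414 ± 24.2 in MLN4924 hypoxia.

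Of the other membrane and stalk subunits of the ATP synthase, Atp5mpl, a small proteolipid, fell under MLN4924 (log2 fold change -0.44 ± 0.12, limma adjusted p = 0.0210, lost in 5 of 23 alternatives at 0.0517 to 0.0718) and read -0.050 in DMSO (limma adjusted p = 0.777). Atp5pb, the b subunit of the stator stalk, had -0.30 ± 0.11 under MLN4924 (limma adjusted p = 0.0711) and passed there without DMSO hypoxia replicate 1 (limma adjusted p = 0.000227). The OSCP subunit Atp5o, the stalk subunit Atp5j (F6) and Atp5md, the most abundant member at 979 ± 48.9 FPKM in DMSO normoxia, did not pass in either drug condition. Their log2 values were 0.074, 0.20 and 0.063 in DMSO and 0.045, 0.050 and -0.071 under MLN4924. Atpif1, the inhibitor of ATP hydrolysis, lies outside the naming rule. It stood at 443 ± 34.1 FPKM in DMSO normoxia and 457 ± 91.4 FPKM in DMSO hypoxia, and did not pass in any contrast.

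In complex I 2 of 38 subunits rose (5.26%) and 3 fell (7.89%) in DMSO, below the 13.8% and 19.4% of all tested genes. Under MLN4924 1 of 38 rose and 2 fell, against 11.7% and 16.5% of all tested genes. Besides Ndufv3, Ndufa6, an accessory subunit of the LYR family near the ubiquinone site, rose in DMSO from 212, 223 and 211 FPKM to 366, 253 and 277 FPKM, with a log2 fold change of 0.45 ± 0.11 (limma adjusted p = 0.00947; 0.29 ± 0.042 without DMSO hypoxia replicate 1). Under MLN4924 the same gene went from 195, 201 and 202 FPKM to 234, 239 and 241 FPKM, a change of 0.25 that passed without that library but not with it (limma adjusted p = 0.000526 and 0.109). Hypoxic libraries lay above normoxic ones in both drug conditions.

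Accessory subunits that fell in DMSO were Ndufc1, Ndufa10 and Ndufa12 (log2 fold change -0.26 ± 0.075, limma adjusted p = 0.0252). Ndufc1, in the membrane arm, went from 113, 115 and 157 FPKM to 91.8, 93.9 and 87.8 FPKM in DMSO, with normoxia replicate 3 high, and from 109, 118 and 102 FPKM to 85.8, 79.2 and 72.2 FPKM under MLN4924. Its log2 fold changes were -0.47 ± 0.12 (limma adjusted p = 0.0116) and -0.47 ± 0.12 (limma adjusted p = 0.0142). Leaving out DMSO hypoxia replicate 1, the DMSO value was -0.48 for Ndufc1 and -0.41 for Ndufa10 (limma adjusted p = 0.0185 and 0.00239). Ndufa10, a subunit related to nucleoside kinases, went from 44.5, 44.1 and 41.8 FPKM to 34.9, 36.0 and 29.1 FPKM in DMSO (log2 fold change -0.38 ± 0.077, limma adjusted p = 0.00382), and from 42.5, 41.5 and 39.4 FPKM to 39.9, 38.5 and 37.4 FPKM under MLN4924, where it did not pass (limma adjusted p = 0.428). The interaction for Ndufa10, 0.29 ± 0.11, did not pass either (limma adjusted p = 0.253). Ndufb8, another membrane-arm subunit and a common protein marker of assembled complex I, fell under MLN4924 from 298, 304 and 296 FPKM to 248.71, 212 and 232 FPKM (log2 fold change -0.38 ± 0.12, limma adjusted p = 0.0393), with a DMSO value of -0.16 ± 0.12 that passed without DMSO hypoxia replicate 1 (-0.33 ± 0.053, limma adjusted p = 0.000978).

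The 7 core subunits of complex I, which carry the electron path, showed 0 calls in either direction with all libraries in both drug conditions. Of the 7, 1 and 0 had an unadjusted p under 0.05 for a rise and a fall in DMSO (1 and 1 under MLN4924). The shares of all tested genes at that unadjusted threshold were not computed. Without DMSO hypoxia replicate 1, 0 rose and 1 fell in DMSO, against 14.8% and 23.9% of all tested genes. Under MLN4924 4 of the 7 rose and 1 fell in that fit, against 17.9% and 24.7%. Ndufs1, the largest of them, had the lowest value, -0.23 ± 0.14 in DMSO and -0.34 ± 0.14 under MLN4924 (limma adjusted p = 0.238 and 0.0965). The median of the 7 was 0.15 in DMSO with all libraries and -0.024 without DMSO hypoxia replicate 1.

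Among the 8 assembly factors, Ndufaf4, which acts early in building the arm that binds ubiquinone, fell in hypoxia with both drugs. It read 8.56, 7.89 and 8.71 FPKM in DMSO normoxia, 7.11, 5.35 and 6.67 FPKM in DMSO hypoxia, 11.1, 9.93 and 11.7 FPKM in MLN4924 normoxia and 6.52, 6.89 and 6.54 FPKM in MLN4924 hypoxia, where the MLN4924 normoxia libraries were the highest of all. Hypoxia gave a log2 fold change of -0.35 ± 0.10 in DMSO (limma adjusted p = 0.0214) and -0.64 ± 0.10 under MLN4924 (limma adjusted p = 0.00108), and -0.43 in DMSO without DMSO hypoxia replicate 1 (limma adjusted p = 0.00639). Ndufaf8, a partner of the methyltransferase-like factor Ndufaf5, fell under MLN4924 from 16.03, 18.9 and 19.0 FPKM to 11.96, 8.81 and 9.64 FPKM (log2 fold change -0.77 ± 0.12, limma adjusted p = 0.00119), with -0.17 ± 0.12 in DMSO (limma adjusted p = 0.306) and an interaction of -0.60 ± 0.18 (limma adjusted p = 0.140). Ndufaf3, the partner of Ndufaf4, read 7.05, 7.80 and 9.98 FPKM in DMSO normoxia and 16.2, 11.2 and 9.76 FPKM in DMSO hypoxia, and its rise of 0.51 ± 0.17 (limma adjusted p = 0.0389) was lost without DMSO hypoxia replicate 1 (0.31 ± 0.13, limma adjusted p = 0.0777).

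Complex II is also the succinate dehydrogenase of the citric acid cycle. Its 4 log2 values in DMSO lay between -0.14 and -0.027, and 0 of them passed with all libraries, against 13.8% and 19.4% of all tested genes that rose and fell. At an unadjusted p under 0.05 there was 1, a fall, and the share of all tested genes there was not computed. Sdhd, a membrane anchor, fell under MLN4924 from 135, 135 and 139 FPKM to 114, 109 and 107 FPKM (log2 fold change -0.30 ± 0.10, limma adjusted p = 0.0362). In DMSO it read 130.3, 136 and 133 FPKM in normoxia and 146, 112 and 107 FPKM in hypoxia, with the replicate that stands apart above all normoxic libraries and the others below them. Without that library 3 of 4 fell in DMSO (Sdha, Sdhb and Sdhd) and 2 of 4 under MLN4924 (Sdhb and Sdhd). In that fit 23.9% of all tested genes fell in DMSO and 24.7% under MLN4924.

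In complex III, besides Uqcrq, Uqcrc1, a core subunit on the matrix side, fell in DMSO from 144, 142 and 138 FPKM to 130.2, 114 and 116 FPKM (log2 fold change -0.24 ± 0.063, limma adjusted p = 0.0152) and read 135, 142 and 133 FPKM and 124, 114 and 127 FPKM in the MLN4924 groups (-0.16 ± 0.063, limma adjusted p = 0.0773). Its hypoxic libraries lay below its normoxic ones in both conditions. Uqcrfs1, the Rieske iron-sulfur protein, changed sign with the library left out: 0.021 ± 0.12 in DMSO with all libraries and -0.15 ± 0.043 without DMSO hypoxia replicate 1 (limma adjusted p = 0.910 and 0.0193). Without that library 5 of 8 members of complex III fell in DMSO and 4 of 8 under MLN4924, and 1 rose in each, Uqcrq. Of all tested genes, 23.9% fell and 14.8% rose in DMSO in that fit, and 24.7% fell and 17.9% rose under MLN4924.

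Of the remaining subunits of complex IV, 0 passed in either drug condition with all libraries. Cox5a, which binds subunit IV, read -0.017 in DMSO with all libraries and -0.26 without DMSO hypoxia replicate 1 (limma adjusted p = 0.942 and 0.00213). Cox5b, which binds zinc, read -0.016 and -0.15 in the same fits (limma adjusted p = 0.908 and 0.0101). Under MLN4924 in the fit without that library Cox4i1, Cox6a1 and Cox6b1 rose, by 0.15, 0.24 and 0.21. Cox5a, Cox6c and Cox7b fell there, with -0.19, -0.093 and -0.22. Thus 5 of the 14 genes of complex IV rose and 4 fell under MLN4924 in that fit, against 17.9% and 24.7% of all tested genes. The median of the 14 genes was 0.149 in DMSO with all libraries, -0.054 without DMSO hypoxia replicate 1 and 0.0076 under MLN4924. Under the scalings tried the DMSO median ran from 0.028 to 0.214 with all libraries and from -0.084 to 0.015 without DMSO hypoxia replicate 1. The MLN4924 median ran from -0.027 to 0.060.

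Counted over all complexes without DMSO hypoxia replicate 1, 39 of 89 members fell in DMSO and 7 rose, against 23.9% and 14.8% of all tested genes. The 39 are 43.8% of the members. Under MLN4924 28 of 89 fell and 14 rose in that fit, against 24.7% and 17.9% of all tested genes, so there the members' shares were nearer the background. Of the members that fell, 24 did so in both drug conditions, which is 61.5% of the DMSO list and 85.7% of the MLN4924 list. Of those that rose, 6 did so in both, 85.7% of the DMSO list and 42.9% of the MLN4924 list. The matching overlap over all tested genes was not computed, so these shares are not read as particular to the members. In DMSO the falls were 12 of 38 in complex I, 3 of 8 among its assembly factors, 3 of 4 in complex II, 5 of 8 in complex III, 5 of 14 in complex IV and 11 of 17 in complex V. Median log2 changes were -0.12, -0.22, -0.18, -0.19, -0.054 and -0.22 in the same order. These lists and medians describe the members, which share libraries and are not replicates. Lower RNA per cell and a lower share of cells that express a gene cannot be told apart in these bulk libraries.

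**Figure D2:**
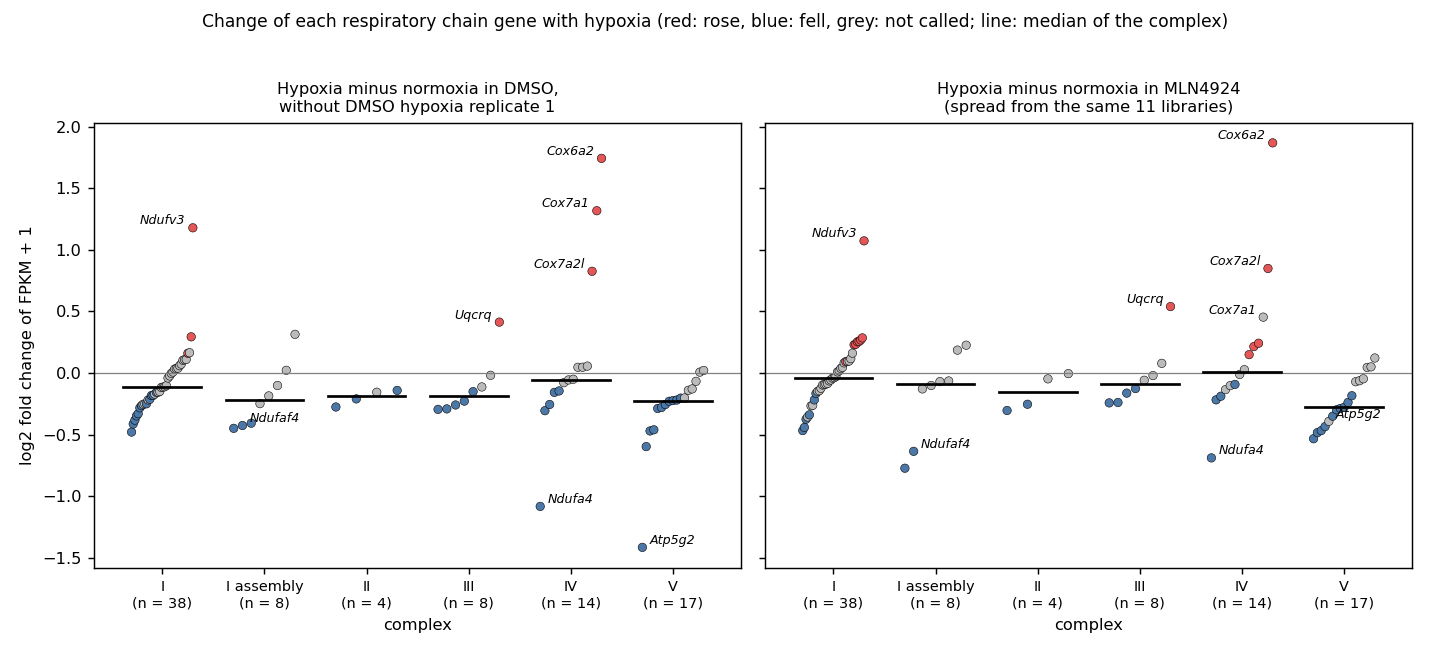
Log2 fold change of FPKM + 1 with hypoxia (y axis) for each of the 89 members, sorted within their complex (x axis), in DMSO without DMSO hypoxia replicate 1 (left) and under MLN4924 (right), from 1 fit of 11 libraries. Red points rose, blue points fell and grey points did not pass. The black line is the median of the complex. In the left panel complex V and the complex I assembly factors both lie at -0.22, and in the right panel complex V is lowest at -0.28.

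The spread of the complexes over single libraries was read as the median change of each complex against the DMSO normoxia mean. In DMSO hypoxia replicate 1 all 6 medians lay above 0, while in replicates 2 and 3 all 6 lay below 0. In the 3 MLN4924 hypoxia libraries complex V lay between -0.41 and -0.27 and complex II between -0.29 and -0.26, whereas complex IV lay between -0.037 and -0.029. The assembly factors of complex I were above 0 in all 3 MLN4924 normoxia libraries.

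**Figure D3:**
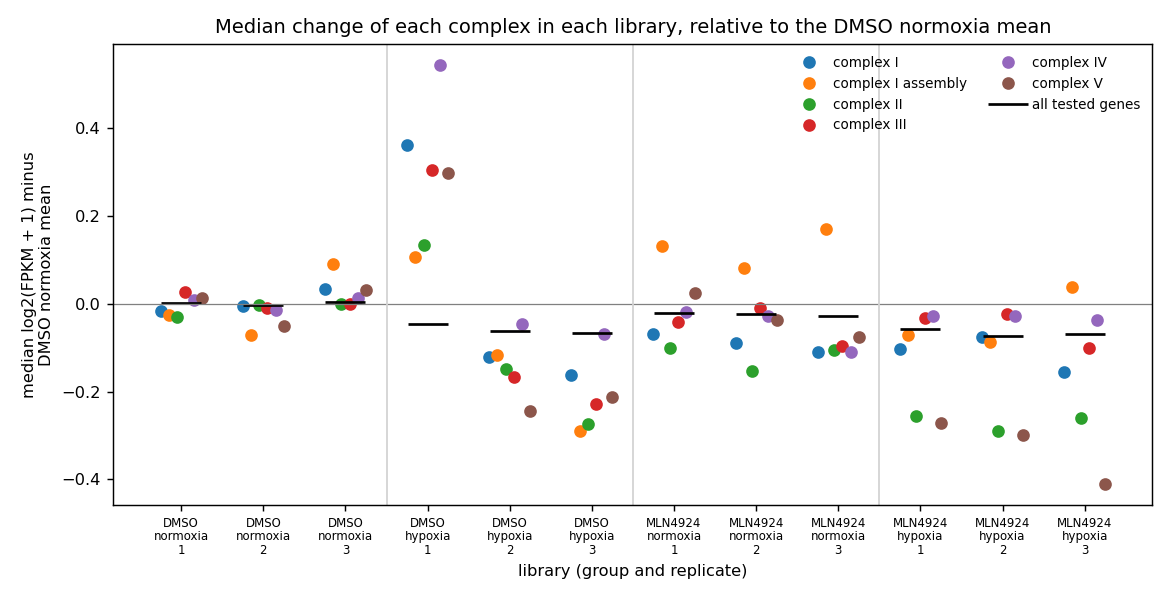
Median over the members of each complex of log2(FPKM + 1) minus the DMSO normoxia mean (y axis) in each of the 12 libraries (x axis); black dashes are the median of all tested genes. DMSO hypoxia replicate 1 lies above 0 for each complex, unlike the other replicates of its group, and in the MLN4924 hypoxia libraries complexes V and II are the lowest.

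The effect of MLN4924 in normoxia was small. With all libraries 1 of 89 members rose, Ndufaf4, and 1 fell, Sdha, while 9.33% and 10.7% of all tested genes rose and fell. Ndufaf4 had a log2 fold change of 0.34 ± 0.10 (limma adjusted p = 0.0365), and its MLN4924 libraries lay above its DMSO libraries. The call was lost in 9 of 23 alternatives (limma adjusted p = 0.0512 to 0.128), 8 of them with 1 library left out. Sdha, the flavoprotein of complex II, went from 65.9, 69.0 and 67.8 FPKM to 58.6, 57.6 and 60.2 FPKM, with no overlap (log2 fold change -0.20 ± 0.048, limma adjusted p = 0.0148), a call lost when DMSO normoxia replicate 2 or 3 or MLN4924 normoxia replicate 1 or 2 was left out (limma adjusted p = 0.0527 to 0.0618). Ndufv3 was lower with MLN4924 in each library but did not pass (-0.34 ± 0.13, limma adjusted p = 0.0959) until the spread was estimated without DMSO hypoxia replicate 1 (limma adjusted p = 0.00246). In that fit 3 members rose (Uqcrfs1, Ndufaf8 and Ndufaf4) and 14 fell, against 16% and 18.2% of all tested genes. Of the 14, 8 were subunits of complex I, among them Ndufs3 (-0.15) of the core.

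In hypoxia, MLN4924 lowered 9 members and raised 0 with all libraries (limma, adjusted p under 0.05), against 13.3% and 12.2% of all tested genes that fell and rose. At an unadjusted p under 0.05 there were 2 for a rise and 19 for a fall, and the matching shares of all tested genes were not computed. The 9 members lowered at the adjusted threshold were Cox7a1, Ndufv3, Ndufb2, Ndufaf3, Atp5mpl, Ndufb1, Ndufb11, Uqcr11 and Atp5pb. Ndufv3 changed by -0.63 ± 0.13 (limma adjusted p = 0.00591) on the log2 scale and by -0.45 ± 0.071 without DMSO hypoxia replicate 1 (limma adjusted p = 0.00107). Atp5mpl went from 440.3, 302 and 312 FPKM with DMSO to 238, 230.0 and 239 FPKM with MLN4924, without overlap (log2 fold change -0.55 ± 0.12, limma adjusted p = 0.00746; -0.38 without that library). Ndufb2, a membrane-arm subunit, went from 138, 73.4 and 78.4 FPKM to 61.4, 63.1 and 56.3 FPKM (-0.61 with all libraries and -0.33 without the first, limma adjusted p = 0.0453 and 0.0298), and the call was lost in 11 of 23 alternatives (limma adjusted p = 0.0521 to 0.157). Cox7a1 changed by -1.71 ± 0.51 (limma adjusted p = 0.0327), a call lost without DMSO hypoxia replicate 1 (-1.19, limma adjusted p = 0.0753) and under several other alternatives.

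The direction of the MLN4924 effect in hypoxia over the members as a whole rested on DMSO hypoxia replicate 1. With all libraries 72 of 89 log2 values were below 0 and the median was -0.14, beside -0.0054 for all tested genes. Without that library the median was 0.0098, 14 members rose and 9 fell, against 16.8% and 15.7% of all tested genes. Of the 9 falls with all libraries, 6 remained: Ndufv3, Ndufb2, Ndufb11, Ndufaf3, Atp5pb and Atp5mpl. The 14 that rose in that fit included 6 of the 17 members of complex V, led by Atp5g2, and also Ndufa4, which read 225, 169 and 149.8 FPKM with DMSO and 209, 209.9 and 197 FPKM with MLN4924 (0.37 ± 0.056, limma adjusted p = 0.000885; 0.20 ± 0.12 and 0.241 with all libraries).

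**Figure D4:**
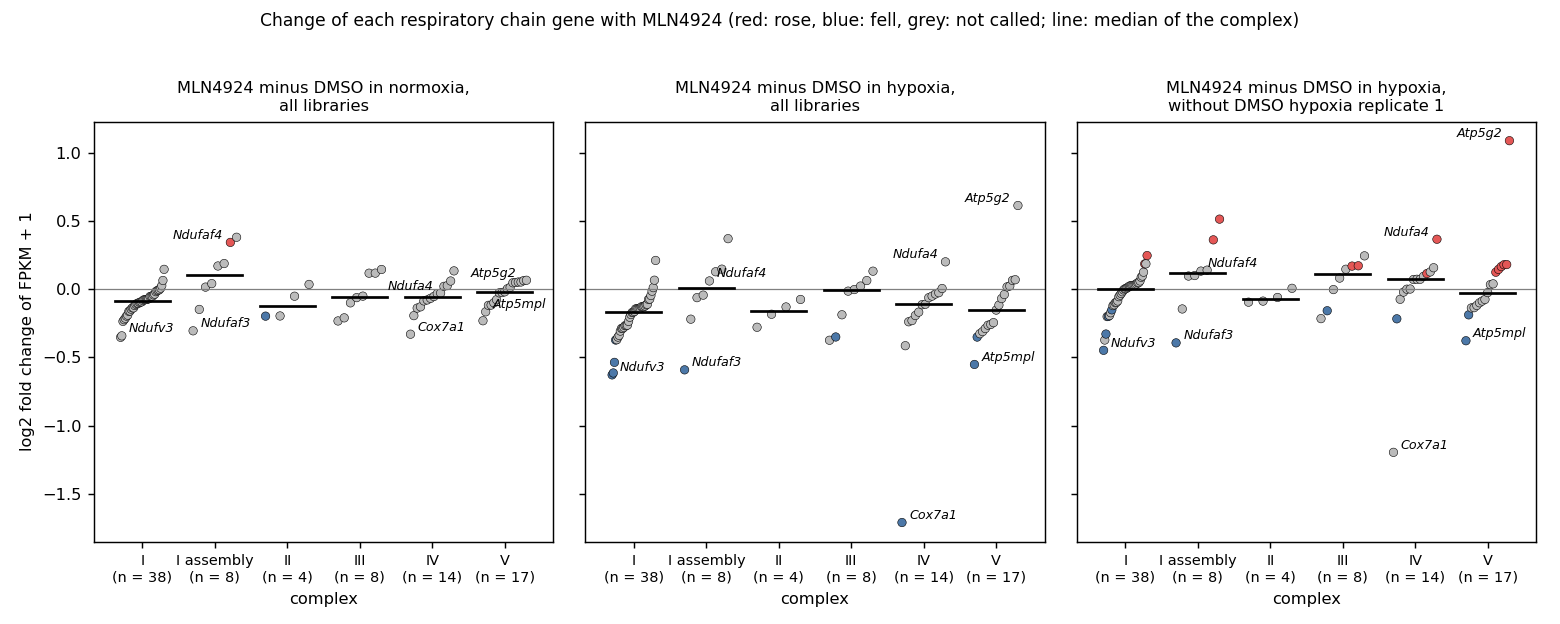
Log2 fold change of FPKM + 1 with MLN4924 (y axis) for each of the 89 members by complex (x axis), in normoxia (left), in hypoxia with all libraries (middle) and in hypoxia without DMSO hypoxia replicate 1 (right). Red points rose, blue points fell, grey points did not pass and the black line is the median of the complex; 72 of 89 values lie below 0 in the middle panel, and the cloud is centred near 0 on the right.

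Whether hypoxia changed the members differently with MLN4924 was tested by the interaction. With all libraries 0 of 89 members passed in either direction (limma, adjusted p under 0.05), against 0.958% positive and 0.926% negative among all tested genes. At an unadjusted p under 0.05, 1 was positive and 2 were negative, and the matching shares of all tested genes were not computed. Without DMSO hypoxia replicate 1, 1 member passed, Ndufa4 with a positive value of 0.39 ± 0.075 (limma adjusted p = 0.0164), meaning a smaller fall with MLN4924, against 3.3% positive and 2.21% negative among all tested genes. With all libraries its interaction was 0.23 ± 0.17 (limma adjusted p = 0.566). The 4 genes that rose in both drug conditions had interactions of -0.29 ± 0.18 for Ndufv3, -0.16 ± 0.18 for Cox7a2l, -0.054 ± 0.20 for Uqcrq and 0.058 ± 0.33 for Cox6a2, and 0 of these passed (limma adjusted p = 0.528, 0.709, 0.917 and 0.949).

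Other genes that work with the chain were read from lists chosen for their role. Their counts are to be read against the 13.8% of all tested genes that rose and 19.4% that fell in DMSO (14.8% and 23.9% without DMSO hypoxia replicate 1), and 11.7% and 16.5% under MLN4924 (17.9% and 24.7%). Of 12 genes known to adapt respiration to low oxygen, 8 rose and 0 fell with hypoxia in DMSO (7 and 2 without DMSO hypoxia replicate 1), and 8 rose and 1 fell under MLN4924 (9 and 2). Among them Lonp1, the protease known to degrade Cox4i1 in hypoxia, went from 75.5, 78.2 and 78.8 FPKM to 208, 205 and 204 FPKM in DMSO (log2 fold change 1.40 ± 0.044, limma adjusted p = 1.86e-08). Higd1a, which binds complex IV, changed by 1.72 ± 0.14 (limma adjusted p = 1.42e-05), and Pdk1, which keeps pyruvate from the mitochondrion by inhibiting pyruvate dehydrogenase, by 1.01 ± 0.086 (limma adjusted p = 1.72e-05). MLN4924 lowered 5 of these 12 in normoxia and 7 in hypoxia and raised 0 in both. Of all tested genes, 10.7% and 13.3% fell and 9.33% and 12.2% rose. Without DMSO hypoxia replicate 1 it lowered 6 and raised 0 in normoxia, against 18.2% and 16% of all tested genes. In hypoxia it then lowered 7 and raised 1, against 15.7% and 16.8%. Pdk1 changed with MLN4924 by -1.04 ± 0.086 in normoxia (limma adjusted p = 2.53e-05).

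Of the 13 protein-coding transcripts of mitochondrial DNA, 7 fell with hypoxia in DMSO and 6 under MLN4924, and 0 rose (8, 9 and 0 without DMSO hypoxia replicate 1). The complex I transcript mt-Nd1 changed by -0.98 ± 0.078 in DMSO and -0.92 ± 0.078 under MLN4924 (limma adjusted p = 1.03e-05 and 2.05e-05), whereas mt-Co1, the catalytic subunit of complex IV, read -0.028 ± 0.094 and -0.046 ± 0.094 (limma adjusted p = 0.840 and 0.762). With each library scaled to the same total of nuclear genes, 26 members fell and 8 rose in DMSO and 25 fell and 9 rose under MLN4924. Under this scaling 25.8% of all tested genes fell and 10.6% rose in DMSO, and 18.8% fell and 11.03% rose under MLN4924. It moved the median of all tested genes in DMSO by -0.10. The scaling also evens out the high total of DMSO hypoxia replicate 1, so the part of mitochondrial RNA cannot be read from it. Without that library, 43 members fell in DMSO with this scaling, against 26.3% of all tested genes. Without that library and without the scaling 39 fell, against 23.9%. Of 25 genes for complex IV assembly and copper delivery, 2 rose and 3 fell in DMSO and 2 rose and 4 fell under MLN4924 (1 and 5, and 4 and 6, without DMSO hypoxia replicate 1). Of 19 electron carriers and genes of coenzyme Q synthesis, 1 rose and 0 fell in DMSO and 2 rose and 3 fell under MLN4924 (1 and 4, and 4 and 5, without that library). Of 13 regulators of respiratory genes, 3 rose and 1 fell in DMSO and 1 rose and 1 fell under MLN4924 (3 and 1, and 1 and 2). Of 11 complex I assembly factors with other names, 1 rose and 1 fell in each (1 and 3, and 2 and 2), and of 4, 5 and 5 assembly factors of complexes II, III and V 0 passed in either with all libraries.

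The promoter windows of the members were searched for the letters of known factors of respiratory genes. The palindromic NRF1 motif, searched on either strand, stood in 28.38% of 74 member genes (27.85% of their 79 windows) and in 6.23% of all windows. The YY1 letters AAGATGGCG stood in 10.81% of member genes and 1.4% of all windows, the letters CCGGAAGT of the GABP family in 6.76% and 3.89%, and a HIF core in 67.57% and 43.77%. Of the genes that rose under MLN4924, 1 of 2 with a window held a HIF core and 0 held the NRF1 motif. Of those that fell, 7 of 10 held a HIF core and 4 held the NRF1 motif, and of those not called 42 of 62 and 17 of 62 did. These windows are a description and no test of any factor.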

How the data were processed

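RNA-seq of 12 libraries, 4 groups of 3 that the submitters call biological replicates, was read from 1 deposited table. Its values are FPKM per gene, made by the authors with fastp, STAR and RSEM 1.3.3 on mm39, per the submitters' processing notes. No counts were used, so the depth per library is unknown and no counting interval is given. The 12311 genes that reached 1 FPKM in 3 or more libraries were tested on log2(FPKM + 1), so fold changes understate those of low genes. Group means were fitted over all 12 libraries with limma 3.58.1 (R 4.3.3, empirical Bayes with trend, two-sided, Benjamini-Hochberg over all tested genes, threshold 0.05) for 5 contrasts: hypoxia in DMSO, hypoxia under MLN4924, MLN4924 in normoxia, MLN4924 in hypoxia, and the interaction. The fit was tested on simulated data.

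The genes named are isoform sets, core or catalytic subunits, and in each contrast the 5 passing members with the highest and the 5 with the lowest log2 fold change; others named were chosen after their values were seen. 1 further gene covered by the rule is not reported here. The members and lists were chosen with earlier results of these data known. Transcript lengths were matched by symbol from GENCODE M21, and promoters came from RefSeq on GRCm38.p6, with no coordinates carried between builds. Deviations of libraries with the same replicate number correlated between -0.070 and 0.099 in 18 pairs, so the numbers were not taken to pair samples. Alternatives were another pseudocount, no filter, other scalings, a length correction, array weights, only the groups compared, a replicate block and each library left out. The 2 settings that join a scaling with leaving out DMSO hypoxia replicate 1 were chosen after seeing the data. Python 3.11.15, numpy 2.4.6, pandas 2.3.3, scipy 1.17.1 and matplotlib 3.10.9 were used.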

Additional observations from a re-analysis of the deposited data

Results flagged for a closer look

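One member had a hypoxia effect that differed between the drug conditions by a test of the difference itself. Ndufa4 had an interaction of 0.39 ± 0.075 on the log2 scale (limma adjusted p = 0.0164) when DMSO hypoxia replicate 1 was left out, with a hypoxia change of -1.08 in DMSO and -0.69 under MLN4924. With all libraries it was 0.23 and did not pass (limma adjusted p = 0.566).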

How the results depend on the processing

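Ndufv3, Cox7a2l, Cox6a2, Ndufa4 and Atp5g1 kept direction and call in both hypoxia comparisons under all 23 alternatives; counts over the members did not. Causes were not tested. The share of all genes tested in the same setting that moved the same way is in brackets. For hypoxia in DMSO the counts of members that rose and fell were 7 and 10 (13.8% and 19.4%). They were 11 and 6 (16.9% and 15.6%) with median-of-ratios scaling and 3 and 3 (7.67% and 10.4%) with only the groups compared. For that comparison 26 fell with the nuclear total (25.8%) and 37 with array weights (26.2%). With the length correction 12 rose, without and with the replicate block (17.9% and 16.7%). For MLN4924 in normoxia 0 rose without a filter, 2 rose with median-of-ratios scaling, 9 fell with the nuclear total, 2 rose and 3 fell with the length correction, 3 rose and 14 fell with array weights, and 4 rose and 16 fell with only the groups compared. For MLN4924 in hypoxia 2 fell without a filter (5.68%), and 4 rose and 15 fell with the nuclear total (12.8% and 11.5%). In the same comparison 4 rose with the length correction (14.1%), 11 rose with array weights (17.3%) and 0 fell with only the groups compared (5.22%). With the replicate block 1 rose (10.9%), and 3 rose with block and length correction (12.9%). For hypoxia under MLN4924 9 rose and 25 fell with the nuclear total (11.03% and 18.8%). With the length correction 9 rose, without and with the block (15.1% and 13.8%). With array weights 14 rose and 26 fell (18.2% and 25.2%), and with only the groups compared 14 rose and 31 fell (17.0% and 23.4%). Array weights gave 2 positive interactions (3.88%). The replicate block otherwise moved no count by over 1.5 times (6 rose and 10 fell with hypoxia in DMSO, against 12.7% and 17.9% of all tested genes).

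With 1 library left out, 5 to 13 rose and 5 to 43 fell with hypoxia in DMSO, 0 to 5 rose and 0 to 27 fell with MLN4924 in normoxia, 0 to 17 rose and 2 to 16 fell with MLN4924 in hypoxia, 3 to 19 rose and 7 to 36 fell with hypoxia under MLN4924, and 0 to 2 interactions were positive. The ranges include the 2 scalings joined to leaving out DMSO hypoxia replicate 1. Without that library alone 39 fell with hypoxia in DMSO and 28 under MLN4924 (23.9% and 24.7% of all tested genes). With median-of-ratios scaling as well these were 27 and 24 (19.1% and 21.1%). With the nuclear total as well they were 43 and 36 (26.3% and 27.4%), with 8 rising with MLN4924 in hypoxia (14.2%). Without that library some values changed sign: Uqcrfs1 with hypoxia in DMSO to -0.15 (-0.18 with the nuclear total), and with MLN4924 in hypoxia Uqcrfs1 to 0.17 (0.18 with median-of-ratios scaling, 0.13 with the nuclear total) and Cox7b to 0.11 (0.13 with median-of-ratios scaling). With another replicate of that group left out they ran to -0.093 for Uqcrfs1 and -0.17 for Cox7b. With DMSO hypoxia replicate 1 left out and median-of-ratios scaling as well, Cox4i1 and Cox5b turned to 0.083 and 0.11 with MLN4924 in hypoxia. With that library left out and the nuclear total as well, Ndufb2 turned to -0.28 with hypoxia in DMSO. FPKM give no depth, so the precision of low genes such as Cox7a1 and Cox6a2 rests on the 3 libraries of a group.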

Other observations

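AA467197, also known as Nmes1, is a relative of Ndufa4 that lies outside the naming rule and was looked up after the values of Ndufa4 were seen. It read 1.95, 1.92 and 2.13 FPKM in DMSO normoxia and 9.74, 4.47 and 5.56 FPKM in DMSO hypoxia, and 3.50, 3.33 and 2.03 FPKM and 7.01, 5.89 and 6.54 FPKM in the MLN4924 groups. The hypoxic libraries lay above the normoxic ones in both drug conditions. The log2 fold change was 1.28 ± 0.23 in DMSO (limma adjusted p = 0.00187) and 0.94 ± 0.23 under MLN4924 (limma adjusted p = 0.0116), while Ndufa4 itself stood more than an order of magnitude higher in every library.

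Coenzyme Q is the lipid that carries electrons from complexes I and II to complex III. Of 19 tested genes for electron carriers and coenzyme Q synthesis, 1 rose and 4 fell with MLN4924 in normoxia, against 9.33% and 10.7% of all tested genes. Without DMSO hypoxia replicate 1, 4 rose and 6 fell, against 16% and 18.2%. Coq8a, a kinase-like protein of the synthesis complex, went from 1.38, 1.49 and 1.57 FPKM to 0.39, 0.46 and 0.33 FPKM (log2 fold change -0.83 ± 0.10, limma adjusted p = 0.000262). Its DMSO normoxia values lay just above the minimum of 1 FPKM and its MLN4924 normoxia values below it. Coq9, which presents lipid intermediates, went from 15.5, 16.8 and 15.8 FPKM to 10.5, 10.5 and 10.6 FPKM (-0.56 ± 0.084, limma adjusted p = 0.00101), and Coq10a, a coenzyme Q binding protein, from 10.3, 7.38 and 9.46 FPKM to 5.19, 4.63 and 3.26 FPKM (-0.91 ± 0.17, limma adjusted p = 0.00358). All 3 also fell with MLN4924 in hypoxia, with log2 fold changes of -0.37, -0.36 and -0.79 (limma adjusted p = 0.0227, 0.00999 and 0.00674). Cyc1, the cytochrome c1 of complex III that the naming rule does not reach, rose with MLN4924 in normoxia by 0.20 and in hypoxia by 0.20 (limma adjusted p = 0.0493 and 0.0493).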
